A study of Petunia x hybrida with 22 samples.

Results

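Broad domains of histone acetylation were described in the corolla, the coloured petal tissue, of Petunia x hybrida cultivar Mitchell. A domain was formed from islands, which are intervals of enriched reads listed as changed between 7AM and 7PM. Every island of 5 kb or more for H3K9ac or H3K27ac was taken from the 8 acetylation lists (2 marks, 2 replicates, higher and lower at 7PM), and those sharing 1 bp or more were merged across marks and replicates. Of 72475 acetylation islands, 2060 (2.84%) were 5 kb or longer, and they merged into 1501 domains that covered 10.4 Mb on 656 of 1608 scaffolds. Acetylation islands of all lengths, merged in the same way, gave 52744 regions.

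Chromatin immunoprecipitation with sequencing (ChIP-seq) had been done for 4 histone marks, H3K4me3, H3K9ac, H3K27ac and H3K36me3, with 2 biological replicates per mark and time and 16 libraries in all. Plants stood in a greenhouse under a 14 h day with light from 6AM to 8PM, so that both times fell in the light period, 1 h after its start and 1 h before its end. All groups shared the cultivar, the tissue, crosslinking with 1% formaldehyde and the library kit, and they differed in antibody and time. Acetylation libraries held 6721831 to 15757663 reads and methylation libraries 26643442 to 51116862 reads. Both H3K27ac libraries of replicate 2 were the shallowest, with 6721831 reads at 7AM and 7945368 at 7PM.

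Acetylation of lysines 9 and 27 of histone H3 is placed by acetyltransferases and removed by deacetylases, and both marks are known from promoters and other regulatory DNA of active genes. H3K4me3 is known to sit around the start sites of transcribed genes, and H3K36me3 in plants lies over the bodies of transcribed genes. Long acetylated stretches have been described over highly transcribed genes and clusters of regulatory elements. The genes under the domains were not analysed here, so regions are given by scaffold and position, and what lies there is not stated.

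The length threshold and the lists fixed the direction and the minimum size of every acetylation change below, which is therefore a description without a test. All lists together hold only islands that changed at least 2.00-fold between the 7AM and the 7PM library of one replicate, with a false discovery rate of at most 0.00970 in the authors' deposited values. An unlisted mark is thus a mark without a listed change and not a mark without signal. Levels are reads per 1000000 library reads (CPM) per kb of listed island, and folds are 7PM over 7AM. Replicates are biological by the series' own description, with 2 per group throughout.

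One library pair stood apart from the others, H3K9ac replicate 2. Among broad islands, its lists held 379 higher and 35 lower at 7PM, while H3K9ac replicate 1 held 21 higher and 866 lower. H3K27ac held 29 higher and 495 lower in replicate 1, and 55 higher and 180 lower in replicate 2. Broad islands were mostly lower at 7PM in 3 pairs and mostly higher in the 4th. Without H3K9ac replicate 2, 1646 broad islands and 1164 domains were left, of which 1059 (91.0%) were lower and 76 (6.53%) higher. When replicate 1 of both marks was left out, 33.1% of 649 broad islands were lower, and when replicate 2 of both marks was left out, 96.5% were. The share of lower domains therefore depended on the library pair, and the part that each library plays in it was not tested.

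Over all 4 pairs, 1055 domains (70.3%) were lower at 7PM in every acetylation list that held them, 348 (23.2%) were higher, and 98 (6.53%) held both directions. The median length was 6200 bp, with quartiles of 5400 and 7600 bp, and 135 domains were 10 kb or longer. Of the long ones, 106 were lower, 17 higher and 12 mixed. Medians hardly differed by direction, at 6200 bp for lower, 6400 bp for higher and 6600 bp for mixed domains. At the threshold, 204 islands measured exactly 5000 bp and 232 measured 4800 bp, just below it. Of these, 79.9% and 78.0% were lower, with median absolute log2 folds of 1.28 and 1.35, so the threshold marks no step in direction or size.

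Most domains were broad in 1 pair of libraries: 1095 (73.0%) were, 296 in 2 pairs, 85 in 3 and 25 in all 4. Counting islands of any length inside the domains, 495 were listed in 1 pair, 453 in 2, 364 in 3 and 189 in 4. Of the 189, 137 were lower, 34 higher and 18 mixed. H3K9ac was listed at 1455 domains, H3K27ac at 1008 and both at 962. The broad islands were of H3K9ac alone at 877 domains, of H3K27ac alone at 247 and of both at 377. Only those 377 (25.1%) were broad in both marks, and the rest are broad domains of 1 mark.

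The most frequent combination, at 268 domains, was lower H3K9ac in replicate 1 with lower H3K27ac in both replicates and H3K9ac replicate 2 unlisted. Lower H3K9ac in replicate 1 alone followed at 263 domains. Lower H3K9ac and lower H3K27ac, both in replicate 1 only, made up 247. Higher H3K9ac in replicate 2 with nothing else listed accounted for 194, which is more than the 137 domains that were lower in all 4 pairs. Higher H3K9ac and H3K27ac in replicate 2 only were seen at 61.

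Direction moved with island length, and in opposite ways in the H3K9ac replicates. In H3K9ac replicate 1, 66.0% of 8662 islands under 1 kb were lower at 7PM, against 97.6% of 887 islands of 5 kb or more (exact binomial 95% interval 96.4 to 98.5%). In H3K9ac replicate 2, the share was 60.7% of 3233 islands under 1 kb and 8.45% of 414 broad islands (interval 5.96 to 11.6%). Short islands of both replicates were mostly lower, and the replicates separated as islands lengthened, with 90.2% and 26.3% lower between 2 and 3 kb. In H3K27ac replicate 1 the share was 74.1% under 1 kb and 94.5% at 5 kb or more. In H3K27ac replicate 2 it was 64.8% and 76.6%. These intervals rest only on the number of islands and cover neither the error of read counts nor variation between libraries. Islands of a library share that library, and reads without molecular identifiers are not independent molecules.

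**Figure D1:**
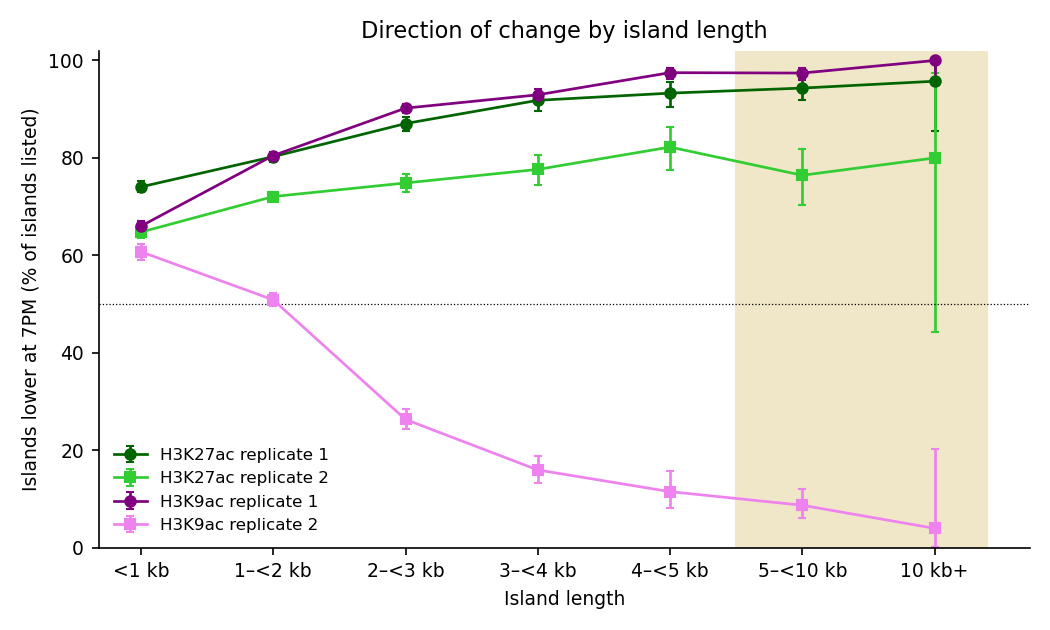
Percentage of listed acetylation islands that were lower at 7PM, by island length class, for each mark and replicate; points are shares of islands and bars exact binomial 95% intervals, with lengths of 5 kb or more shaded. The share is above 90% in H3K27ac replicate 1 and H3K9ac replicate 1 at 5 kb or more (94.5% and 97.6%), and at 8.45% in H3K9ac replicate 2.

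The changes of broad islands were moderate and alike in size in the 4 pairs. Median log2 folds of lower broad islands were -1.27 and -1.30 for H3K27ac in replicates 1 and 2, and -1.38 and -1.26 for H3K9ac. Those of higher broad islands were 1.39, 1.31, 1.40 and 1.19 in the same order. Changes past 4-fold were few, with 41 of 495 lower islands in H3K27ac replicate 1 and 110 of 866 in H3K9ac replicate 1. Among the 379 higher islands of H3K9ac replicate 2, 16 passed 4-fold.

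Broad islands carried more reads per kb than shorter islands of the same list. In the lower list of H3K27ac replicate 1, median density was 4.80 CPM per kb at 7AM and 1.88 at 7PM, against 2.75 and 1.00 in islands under 5 kb. In the lower list of H3K9ac replicate 1 it was 4.01 and 1.40, against 2.38 and 0.815. In the higher list of H3K9ac replicate 2 it was 1.33 at 7AM and 3.25 at 7PM, against 0.842 and 2.22. The broad islands of the higher list in H3K9ac replicate 2 thus reached at 7PM a density below the 7AM density of the lower list in replicate 1. Within replicate 2 the order was the other way, with 2.95 at 7AM in the 35 broad islands of the lower list. Read numbers were ample, since the higher library of any broad island held at least 55 reads.

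Where broad islands of 2 pairs overlapped, their borders lay close together. The 130 overlapping pairs of islands between the H3K27ac replicates shared a median of 87.5% of their joint length, with median differences of 300 bp at the start and 400 bp at the end. H3K9ac and H3K27ac of replicate 1 gave 325 overlaps with a median of 86.5%, and the H3K9ac replicates gave 38 with 83.5%. The steps of the deposited borders are 200 bp. Directions were the same in all overlaps except 1 of the 128 between H3K9ac replicate 1 and H3K27ac replicate 2.

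H3K27ac was listed in one direction per replicate in both replicates at 492 domains, of which 426 were lower in both, 52 higher in both and 14 opposite (97.2% in the same direction, exact interval 95.3 to 98.4%). Over all 4349 regions so listed, domains included, 84.2% were lower and 9.54% higher in both. H3K9ac was so listed at 270 domains, with 172 lower in both, 60 higher in both and 38 opposite (85.9%, interval 81.2 to 89.8%). Over all 2410 such H3K9ac regions, 55.6% were lower and 16.6% higher in both, and nothing is read from either background, since the rule used these contrasts. If directions in the replicates were unrelated, their balance alone would give 78.9% for H3K27ac and 57.7% for H3K9ac. In shorter regions the shares were 93.3% of 3857 for H3K27ac and 70.5% of 2140 for H3K9ac. In 37 of the 38 opposite H3K9ac domains replicate 1 was lower and replicate 2 higher. Islands of the replicates overlapped in 413 of the 426 lower and all 52 higher H3K27ac domains, and in 168 of the 172 lower and all 60 higher H3K9ac domains.

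**Figure D2:**
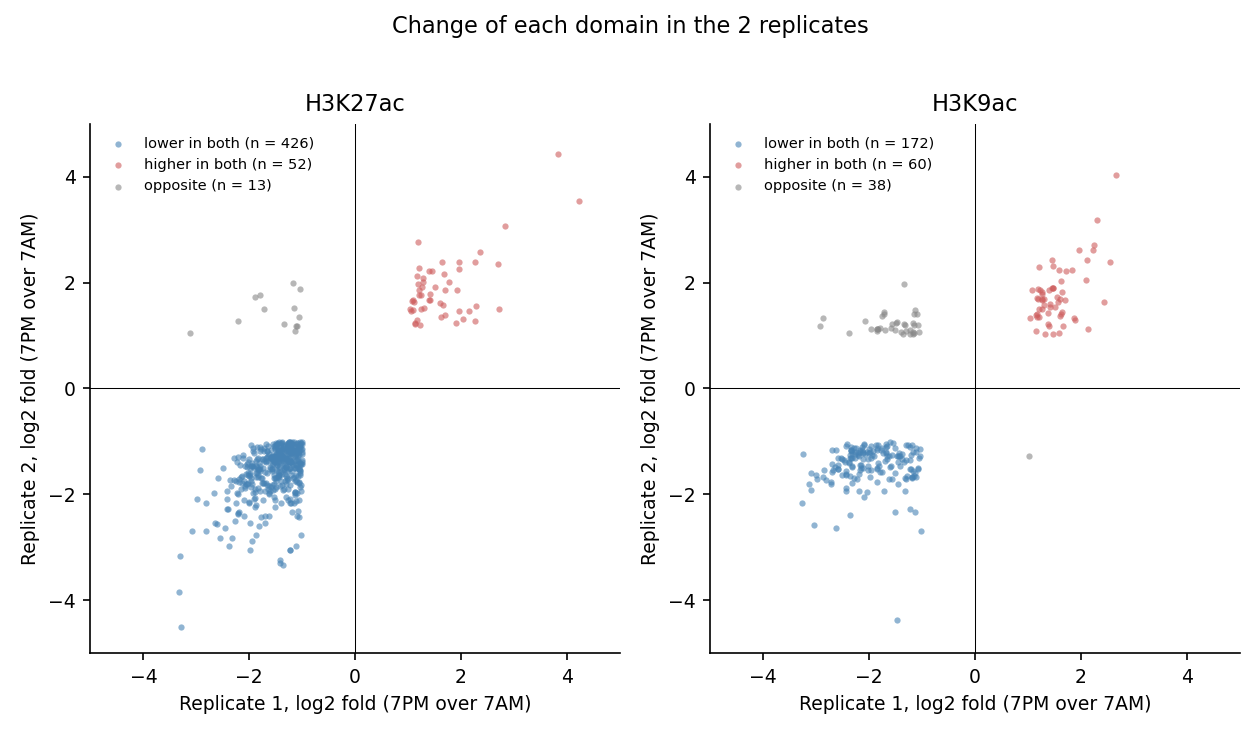
Log2 fold (7PM over 7AM) of each domain in replicate 1 (horizontal axis) and replicate 2 (vertical axis), for H3K27ac and H3K9ac; each point is a domain listed in one direction in each replicate, and 1 opposite H3K27ac domain with 0 reads at 7AM in replicate 2 is not drawn. H3K27ac points lie almost all in the quadrants of equal sign (478 of 492), and 38 of 270 H3K9ac points do not.

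Broad islands of one replicate were then looked up in the replicate that had not chosen them. Of the 495 lower broad islands of H3K27ac replicate 1, 277 overlapped a listed island in replicate 2, and 271 of these were lower there, 2 higher and 4 mixed. All 26 higher ones that were listed in replicate 2 were higher there, of 29 in all. H3K27ac broad islands thus kept their direction wherever replicate 2 listed them in nearly all cases, and 218 of the lower ones were unlisted there.

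H3K9ac broad islands were listed less widely in the other replicate. Of the 866 lower ones of replicate 1, 125 were listed in replicate 2, with 118 lower and 7 higher. All 35 lower ones of replicate 2 were lower in replicate 1. Of the 379 higher ones of replicate 2, 85 were listed in replicate 1, with 54 higher, 26 lower and 5 mixed. The lower broad islands of replicate 2 were therefore found again in full, while 294 of the higher ones had no listed island in replicate 1. The lists differ in size, with 21714 lower and 5699 higher islands of any length in replicate 1. Replicate 2 listed 5331 lower and 6415 higher ones, and the part of list size was not tested.

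The same 379 islands could be looked up in H3K27ac. Replicate 2 of H3K27ac listed 147 of them, with 128 higher, 13 lower and 6 mixed, and replicate 1 listed 78, with 57 higher, 17 lower and 4 mixed. Of the 866 lower H3K9ac islands of replicate 1, H3K27ac replicate 1 listed 509, with 508 lower and 1 mixed, and H3K27ac replicate 2 listed 376, with 357 lower. Higher H3K9ac islands of replicate 2 were matched by H3K27ac in the same direction in most listed cases, yet 232 had no listed H3K27ac island in replicate 2.

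Sizes of change in the replicates followed each other for H3K27ac and not for lower H3K9ac. Across the 426 domains lower in both H3K27ac replicates, Pearson's r of the log2 folds was 0.45, and the median log2 fold was -1.46 in both replicates. Across the 172 lower H3K9ac domains r was 0.06, with medians of -2.01 and -1.37. For higher domains r was 0.63 over 52 H3K27ac domains and 0.56 over 60 H3K9ac domains. These correlations are across regions of the same libraries, which are not independent replicates, and the range of the folds is cut off at 2-fold.

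Where both acetylation marks were listed at a domain, they had one direction in 883 of 906 cases (97.5%, exact interval 96.2 to 98.4%). Of these, 743 were lower and 140 higher in both marks, and 56 further domains with a mixed mark were left out. The balance of directions alone gives 72.1%, and shorter regions gave 93.0% of 10043. Pair by pair the share was 99.3% between the first replicates of the marks, 93.4% between the second replicates, 96.6% for H3K9ac replicate 1 with H3K27ac replicate 2 and 88.4% for H3K9ac replicate 2 with H3K27ac replicate 1. Of the 172 domains where each mark had one direction in both of its replicates, 171 had the same direction in both marks. Without H3K9ac replicate 2 the share of equal direction between marks was 99.1%.

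In domains of one direction in all 4 pairs, neither mark stood out by the size of its change. Over the 137 lower domains the median log2 fold, averaged over replicates, was -1.75 for H3K9ac and -1.74 for H3K27ac, and H3K9ac changed more in 62 and H3K27ac in 75. Over the 34 higher domains the medians were 1.64 and 1.75, with H3K9ac ahead in 14 and H3K27ac in 20.

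The read counts of the domains were also fitted with edgeR's quasi-likelihood test, with replicate as a block and library totals as sizes, over all regions listed in both replicates of a mark. For H3K27ac, 426 domains were lower and 52 higher at a Benjamini-Hochberg adjusted p under 0.05 among 492 fitted, beside 83.0% lower and 9.36% higher among all 4349 regions. For H3K9ac, 0 of 270 domains passed, as did 0% of all 2410 regions. At an unadjusted p under 0.05 there were 152 lower and 58 higher H3K9ac domains, beside 851 and 281 among all 2410 regions. DESeq2 with the same block gave 136 lower and 46 higher domains after adjustment, beside 353 and 139 among all 2410 regions. Since the domains were chosen on these contrasts and every fitted region had been listed as changed, nothing is read from the counts. Without the block the H3K27ac counts were 296 lower and 43 higher, beside 2797 and 334 among all 4349 regions. Counts of the replicates cover islands of different length, which any fit without the block takes as variation between replicates. Leaving out a library, which also ends the block, gave 59 lower without 7AM replicate 1, 273 without 7PM replicate 1 and 0 without either library of replicate 2.

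The scaling bears on every direction given here. Library totals were used, as in the authors' lists, and TMM scaling would move the median log2 change of all fitted regions from -1.41 to 0.00 for H3K27ac, from -1.24 to -0.32 for H3K9ac, from -1.27 to -0.03 for H3K4me3 and from -1.27 to 0.00 for H3K36me3. TMM takes most regions as unchanged, but every fitted region had been listed as changed, and most were lower. A smaller median change was therefore given in advance and does not show which scaling is right. With TMM, 13 domains were lower and 52 higher for H3K27ac, beside 63 and 408 of all 4349 regions. For H3K9ac 34 were lower and 60 higher, beside 69 and 342 of all 2410 regions. "Lower" therefore means a lower share of library reads at 7PM.

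Strong changes at single domains were found in both directions, among the domains listed in all 4 pairs and ranked by their smallest change. In the first of the 5 lower ones, Peaxi162Scf00439 at 672201 to 680800 (8.6 kb), H3K27ac density was 4.67 and 4.77 CPM per kb at 7AM and 0.471 and 0.531 at 7PM in replicates 1 and 2. H3K9ac there was 4.13 and 2.79 at 7AM and 0.500 and 0.468 at 7PM. Both marks were high in every morning library and low in every evening library, without overlap. The log2 fold was -3.24 ± 0.10 for H3K27ac and -2.81 ± 0.33 for H3K9ac (SD, n = 2), and no methylation island was listed.

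Another strongly lower domain lay on the same scaffold, Peaxi162Scf00439 at 932801 to 942400 (9.6 kb). Its H3K27ac density was 5.84 and 5.48 CPM per kb at 7AM and 0.928 and 0.936 at 7PM, and its H3K9ac density 4.43 and 3.85 at 7AM and 0.815 and 1.01 at 7PM. All 10 domains on this scaffold were lower.

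At Peaxi162Scf00496, 736201 to 742000 (5.8 kb), H3K9ac was 5.50 and 2.66 CPM per kb at 7AM and 0.569 and 0.595 at 7PM. H3K27ac was 4.42 and 3.75 at 7AM and 0.916 and 0.658 at 7PM. The evening levels of H3K9ac were alike in the replicates, and the morning levels differed. At Peaxi162Scf00168, 270801 to 275800 (5 kb), the log2 folds were -2.18 ± 0.35 for H3K27ac and -2.38 ± 0.03 for H3K9ac (SD, n = 2). There H3K4me3 was listed too, in replicate 2, at 1.92 CPM per kb at 7AM and 0.516 at 7PM.

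The densest of the 5 lower domains was Peaxi162Scf00125 at 1077001 to 1086600 (9.6 kb). H3K27ac was 9.31 and 7.47 CPM per kb at 7AM and 1.31 and 1.66 at 7PM, and H3K9ac 8.27 and 4.77 at 7AM and 0.963 and 1.27 at 7PM. Morning and evening libraries did not overlap in either mark. H3K4me3 in replicate 1 was 7.50 at 7AM and 2.72 at 7PM, and H3K36me3 in replicate 3 was 2.35 and 0.772, so that all 4 marks were listed as lower here.

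Among domains higher in all 4 pairs, the strongest was at Peaxi162Scf00002, 345401 to 351400 (6 kb). H3K27ac was 0.554 and 0.471 CPM per kb at 7AM and 7.92 and 10.2 at 7PM, on 34 and 19 reads in the morning and 605 and 486 in the evening. H3K9ac was 0.782 and 0.370 at 7AM and 4.96 and 6.06 at 7PM. Both marks were sparse in the morning and dense in the evening in both replicates, with log2 folds of 4.14 ± 0.42 and 3.35 ± 0.97 (SD, n = 2). An H3K4me3 island at one end of the domain went the other way in replicate 1, from 2.06 at 7AM to 0.929 at 7PM.

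Peaxi162Scf00450 at 11601 to 18000 (6.4 kb) followed, with H3K27ac at 0.780 and 0.616 CPM per kb at 7AM and 5.52 and 5.19 at 7PM. Its H3K9ac was 0.941 and 0.661 at 7AM and 4.64 and 6.02 at 7PM. Evening values exceeded all morning values in both marks, and no methylation island was listed. At Peaxi162Scf00207, 295001 to 300400 (5.4 kb), the log2 fold was 2.32 ± 0.09 for H3K27ac and 2.42 ± 0.27 for H3K9ac (SD, n = 2), on 11 to 42 reads per library in the morning and 68 to 312 in the evening.

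At Peaxi162Scf00842, 51401 to 58600 (7.2 kb), H3K27ac was 1.16 and 1.03 CPM per kb at 7AM and 5.96 and 6.15 at 7PM, and H3K9ac was 0.972 and 0.812 at 7AM and 4.22 and 4.34 at 7PM. Replicates lay close together here in both marks. An H3K36me3 island that crossed one edge was lower in replicate 3, at 1.81 and 0.758. Peaxi162Scf00047 at 55401 to 61000 (5.6 kb) was the one of these 5 with a methylation mark in the same direction, with H3K4me3 in replicate 2 at 0.922 at 7AM and 2.17 at 7PM. Its log2 folds were 2.11 ± 0.21 for H3K27ac and 2.48 ± 0.32 for H3K9ac (SD, n = 2).

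**Figure D3:**
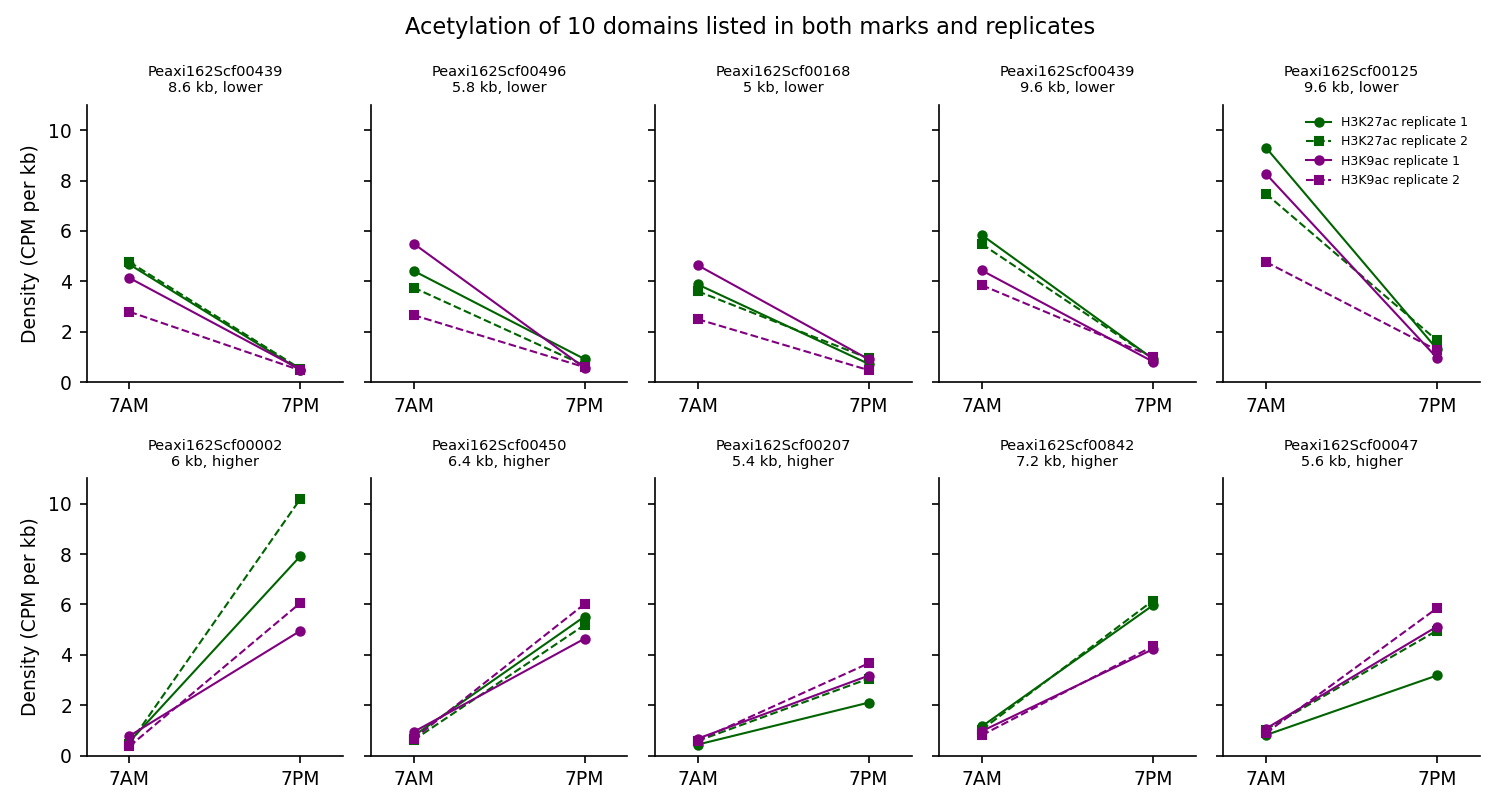
Density (CPM per kb of listed island, vertical axis from 0) at 7AM and 7PM of H3K27ac and H3K9ac in the 5 lower and the 5 higher domains with the largest smallest change over 4 library pairs; each line joins the 7AM and 7PM library of one replicate. In the upper row every 7PM value lies below every 7AM value of the same mark, as in Peaxi162Scf00439 (4.67 to 0.471 for H3K27ac replicate 1), and in the lower row above it, as in Peaxi162Scf00002 (0.554 to 7.92).

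The longest domains were mostly built from replicate 1. The longest, Peaxi162Scf00408 at 200601 to 230200 (29.6 kb), was a single H3K27ac island in replicate 1, with 8.03 CPM per kb at 7AM and 2.99 at 7PM. In replicate 2, 9200 bp of it were listed, with 6.61 at 7AM and 0.670 at 7PM. H3K9ac covered 24200 bp in replicate 1, at 6.78 and 1.87, and 6600 bp in replicate 2, at 3.36 and 0.990. All 4 pairs were lower in the evening, and the log2 folds of H3K27ac, -1.43 and -3.30, refer to stretches of different length.

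Peaxi162Scf00084 at 262401 to 285000 (22.6 kb) was one H3K9ac island in replicate 1, with 5.47 CPM per kb at 7AM and 2.52 at 7PM, and H3K27ac of replicate 1 covered 10400 bp of it at 8.75 and 3.64. No acetylation was listed there in replicate 2, while H3K36me3 was lower over 2000 bp in each of its replicates, at places 13400 bp apart. Replicate 1 went from 1.97 to 0.861 and replicate 3 from 2.62 to 1.14. At Peaxi162Scf00078, 1288201 to 1310000 (21.8 kb), H3K9ac and H3K27ac were also listed only in replicate 1, at 4.47 and 5.89 at 7AM and 1.68 and 2.31 at 7PM. Both methylation marks were lower in both replicates there, with log2 folds of -1.21 ± 0.11 for H3K4me3 and -1.36 ± 0.20 for H3K36me3 (SD, n = 2).

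Peaxi162Scf00789 at 532201 to 552400 (20.2 kb) was the one of the 4 longest with near equal coverage in both H3K27ac replicates, 18800 and 19000 bp. H3K27ac was 6.27 and 4.95 CPM per kb at 7AM and 1.90 and 1.44 at 7PM, without overlap. The fifth longest, Peaxi162Scf00205 at 645801 to 664000 (18.2 kb), rested on an H3K9ac island of replicate 2 that was higher, from 1.34 at 7AM to 3.53 at 7PM. A lower H3K27ac island of 1200 bp in replicate 1 (2.86 and 0.943) lay inside it, and H3K27ac replicate 2 held both directions.

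**Figure D4:**
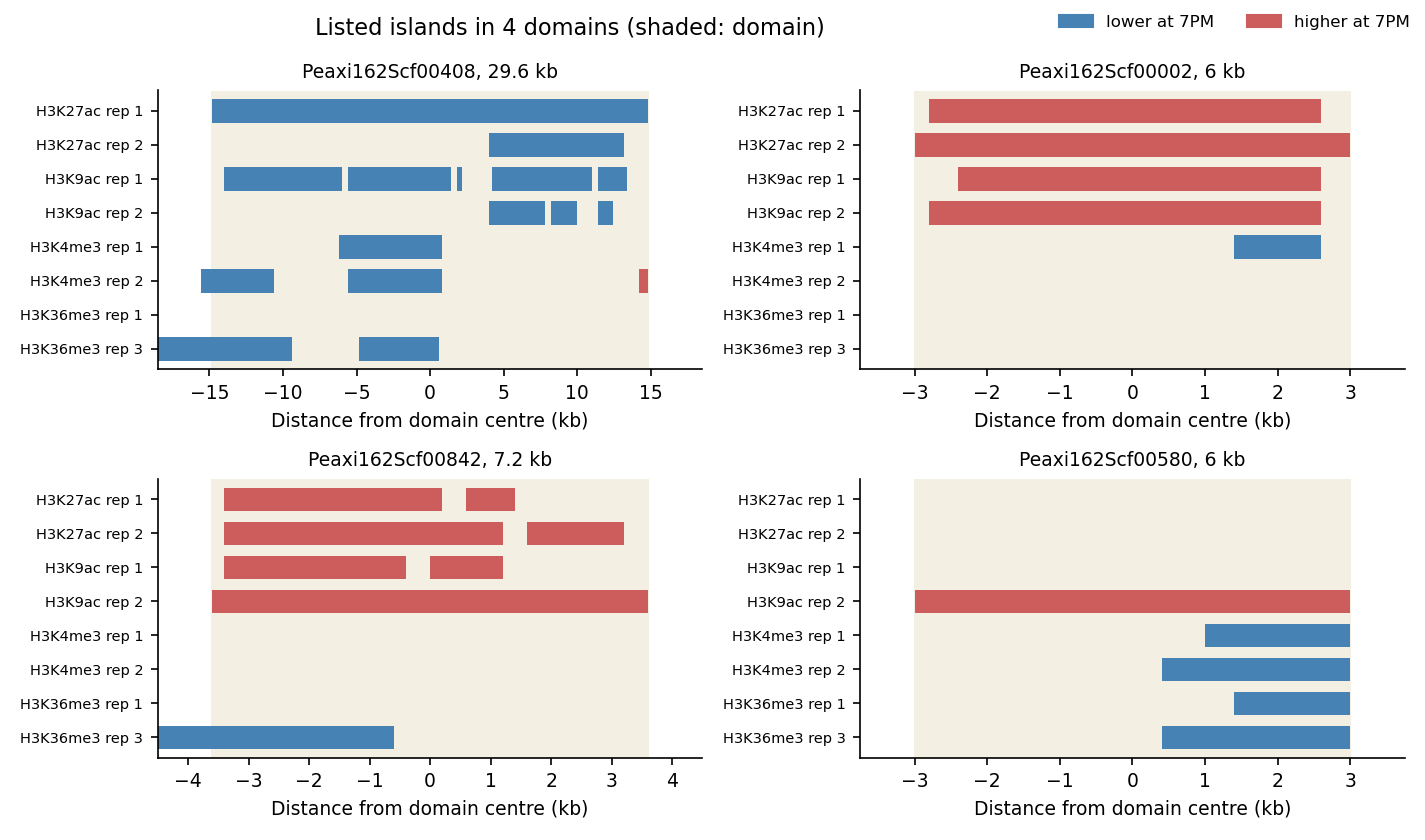
Listed islands (bars, blue lower and red higher at 7PM) of each mark and replicate along 4 domains, with distance from the domain centre in kb on the horizontal axis and the domain shaded. Peaxi162Scf00408 is a single 29.6 kb H3K27ac island in replicate 1 and 9200 bp in replicate 2. At Peaxi162Scf00002 and Peaxi162Scf00842 higher acetylation islands overlap a lower methylation island of a single replicate. At Peaxi162Scf00580 the higher island overlaps lower islands of both methylation marks in both replicates.

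The densest domains were lower in the evening and came mostly from 1 pair per mark. H3K27ac at Peaxi162Scf00016, 1772001 to 1777000, was 18.9 CPM per kb at 7AM and 8.43 at 7PM in replicate 1. At Peaxi162Scf00246, 654401 to 660200, it was 17.0 and 8.48 in replicate 2, with no other mark or replicate listed. Peaxi162Scf00560 at 435601 to 443800 was among the top 3 for both marks, with H3K27ac at 17.3 and 7.02 and H3K9ac at 12.3 and 4.35, both in replicate 1. All of these stayed denser at 7PM than the median lower broad island was at 7AM for H3K27ac, 4.80 CPM per kb in replicate 1 and 4.28 in replicate 2. For H3K9ac the densest were Peaxi162Scf00001 at 5992801 to 5998600 (12.9 and 5.58) and Peaxi162Scf00037 at 1654601 to 1659600 (13.5 and 3.93), again in replicate 1.

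Both methylation marks, which had no part in choosing the domains, were listed almost only as lower inside them. Of the H3K4me3 islands that overlapped a domain, 453 of 453 were lower in replicate 1 and 590 of 604 (97.7%) in replicate 2. Of the H3K36me3 islands, 294 of 294 were lower in replicate 1 and 747 of 754 (99.1%) in replicate 3. Outside domains 58.9% and 48.2% of H3K4me3 islands and 45.9% and 65.0% of H3K36me3 islands were lower. In the acetylation regions shorter than domains, both replicates together, 88.8% of H3K4me3 and 89.2% of H3K36me3 islands were lower, against 98.7% and 99.3% in domains. In shorter regions of higher acetylation the shares were 71.5% and 74.7%, and in higher domains 94.4% and 97.6%.

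Islands inside domains were longer and deeper than those outside, so the shares were also taken over islands whose higher library held 50 reads or more. Outside domains they were then 65.6% and 63.7% for H3K4me3 and 56.1% and 89.8% for H3K36me3. Inside they were 100% and 98.8%, and 100% and 100%. The median number of reads in the higher library was 385 inside and 62 outside for H3K4me3 replicate 1, and 304 and 65 for H3K36me3 replicate 1. The part of depth and length in the difference between inside and outside was not tested beyond this.

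**Figure D5:**
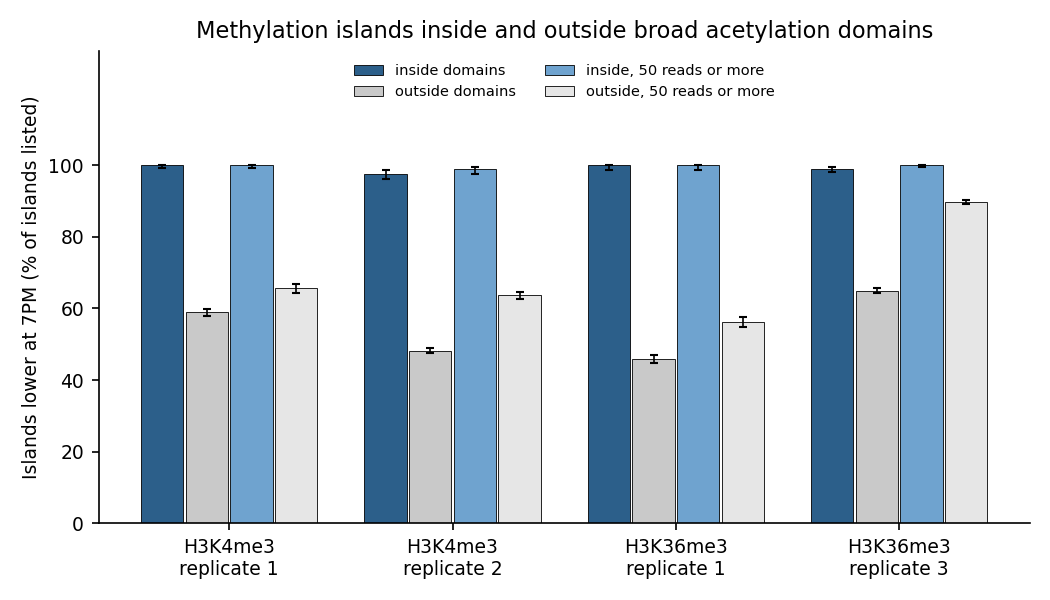
Percentage of listed H3K4me3 and H3K36me3 islands that were lower at 7PM (vertical axis), inside (blue) and outside (grey) broad acetylation domains, per replicate, for all islands and for islands whose higher library held 50 reads or more; bars are shares with exact binomial 95% intervals. Inside domains the shares are 97.7% to 100%, and outside 45.9% to 65.0% over all islands.

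By domain, 692 (46.1%) overlapped a lower H3K4me3 island and 13 (0.866%) a higher one. For H3K36me3 these were 736 (49.0%) and 7 (0.466%). No methylation change was listed at 499 domains (33.2%). Per 100 kb, domains held 10.0 lower H3K4me3 and 10.0 lower H3K36me3 islands, against 7.76 and 8.59 in shorter acetylation regions. Higher islands were rarer in domains, with 0.135 and 0.0674 per 100 kb against 0.978 and 1.04.

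Lower methylation was listed at domains of either acetylation direction. Of the higher domains, 194 had acetylation listed only in H3K9ac replicate 2, the pair that stood apart. Of the 1055 lower domains, 549 (52.0%) overlapped a lower H3K4me3 island and 526 (49.9%) a lower H3K36me3 island. Of the 348 higher domains, 105 (30.2%) overlapped a lower H3K4me3 island and 161 (46.3%) a lower H3K36me3 island, while 7 and 5 overlapped a higher one. The lower methylation islands shared medians of 1800 and 3400 bp with the higher acetylation islands of these domains. Of the 404 domains higher in H3K9ac replicate 2, H3K36me3 replicate 3 was lower at 175 and higher at 5. Per 100 kb, lower H3K4me3 islands were 11.6 in lower and 5.79 in higher domains, and lower H3K36me3 islands 10.5 and 8.70; these differences were not tested.

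Lower H3K4me3 islands inside lower domains had a median length of 2200 bp and covered a median of 29.1% of the domain, and 97.1% had their centre inside it. Lower H3K36me3 islands were longer, at a median of 3600 bp, and 33.6% of them reached beyond the domain's edges, against 13.6% of the H3K4me3 islands. Median positions lay at 41.4% and 45.2% of the way from the domain's centre to its edge.

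In the edgeR fit of the methylation marks, 261 of the 264 domains with H3K4me3 listed in both replicates were lower and 0 higher, beside 88.7% and 9.89% of all 1880 regions (quasi-likelihood test with the replicate block, adjusted p under 0.05). For H3K36me3, 228 of 229 domains were lower and 0 higher, beside 94.2% and 5.67% of all 2573 regions. Islands of the replicates overlapped in 239 of the 261 and 216 of the 228, and in the other 22 and 12 the replicates were lower at different places of the domain. By the lists, 261 and 228 of the fitted domains were lower in both replicates and 0 were higher in both. These counts were therefore largely given in advance, and nothing is read from the absence of higher calls. At an unadjusted p under 0.05 the counts of higher domains were 0 as well. DESeq2 gave 260 lower and 0 higher for H3K4me3, beside 1629 and 141 of all 1880 regions. For H3K36me3 it gave 228 lower and 0 higher, beside 2421 and 139 of all 2573 regions. Regions had entered the fit only if listed as changed in both replicates, so that a high share of calls was given, and the H3K36me3 share lies close to that of all regions.

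By the lists alone, 88.8% of all H3K4me3 and 94.2% of all H3K36me3 regions were lower in both replicates. The number of H3K4me3 calls changed with the block, and that of both marks with the scaling. Without the block, 2 H3K4me3 and 211 H3K36me3 domains were lower, beside 17 of all 1880 and 2370 of all 2573 regions. Counts of the 2 replicates cover islands of different length, which any fit without the block takes as variation between replicates. Without the block and one library, H3K4me3 gave 0 without either 7AM library or 7PM replicate 2 and 3 without 7PM replicate 1, and H3K36me3 gave 0 without either 7AM library, 203 without 7PM replicate 1 and 208 without 7PM replicate 3. With TMM scaling 6 and 4 were lower, beside 14 of all 1880 and 80 of all 2573 regions. TMM was computed over listed regions only, most of them lower, so a smaller median change was given in advance.

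Among domains with a methylation mark listed in both replicates, the largest of the smaller replicate changes was that of H3K4me3 at Peaxi162Scf00047, 2198601 to 2206000 (7.4 kb), where the listed 1000 bp held 4.75 and 2.81 CPM per kb at 7AM and 0.411 and 0.289 at 7PM in replicates 1 and 2. Morning and evening did not overlap, and the log2 fold was -3.41 ± 0.17 (SD, n = 2; edgeR log2 change -3.44, adjusted p = 0.00238). All 4 acetylation pairs were lower there as well, with log2 folds of -1.78 ± 0.01 for H3K27ac and -1.58 ± 0.61 for H3K9ac. H3K36me3 was unlisted.

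H3K4me3 at Peaxi162Scf00316, 499801 to 505600 (5.8 kb), was 6.94 and 4.93 CPM per kb at 7AM and 1.56 and 1.07 at 7PM (edgeR log2 change -2.17, adjusted p = 0.00238). At Peaxi162Scf00091, 1366201 to 1374800 (8.6 kb), it was 3.24 and 3.31 at 7AM and 0.844 and 0.602 at 7PM (log2 change -2.10, adjusted p = 0.00238 in edgeR). In both domains the evening values lay below all morning values, H3K9ac was lower in replicate 1, and H3K27ac was unlisted. No domain had H3K4me3 or H3K36me3 listed as higher in both replicates.

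For H3K36me3 the first of the 3 named domains was lower in acetylation too, and the others were not. These domains, like the H3K4me3 ones above, were picked by the size of this change among regions listed as changed. Their adjusted p-values in edgeR are therefore a description and no support for the change. At Peaxi162Scf00139, 856801 to 863400 (6.6 kb), H3K36me3 was 1.02 and 1.06 CPM per kb at 7AM and 0.282 and 0.295 at 7PM in replicates 1 and 3 (edgeR log2 change -1.84, adjusted p = 2.05e-13). In edgeR with TMM scaling that log2 change was -0.58 (adjusted p = 0.0727). H3K4me3 there was 2.54 and 2.02 at 7AM and 1.04 and 0.963 at 7PM, and H3K27ac 5.49 and 5.46 at 7AM and 2.09 and 2.42 at 7PM. Every listed mark and replicate of this domain was lower in the evening, and only H3K9ac replicate 2 was unlisted.

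At Peaxi162Scf00580, 181801 to 187800 (6 kb), H3K36me3 was 3.70 and 2.19 CPM per kb at 7AM and 1.04 and 0.635 at 7PM (edgeR log2 change -1.81, adjusted p = 4.66e-14). H3K4me3 was 5.77 and 2.60 at 7AM and 1.95 and 0.944 at 7PM (log2 change -1.52, adjusted p = 0.00238 in edgeR). In edgeR with TMM scaling the log2 changes were -0.55 for H3K36me3 (adjusted p = 0.00299) and -0.29 for H3K4me3 (adjusted p = 0.397). The H3K9ac island that made the domain went the other way in replicate 2, from 2.32 to 5.80, and no other acetylation was listed. Likewise at Peaxi162Scf00030, 1684401 to 1692200 (7.8 kb), H3K36me3 was 1.46 and 1.42 at 7AM and 0.425 and 0.375 at 7PM (edgeR log2 change -1.80, adjusted p = 4.70e-13), while H3K9ac replicate 2 was 2.81 at 7AM and 6.74 at 7PM. Leaving out a library, which also ends the block, gave H3K36me3 log2 changes of -2.88 to -0.81 at this domain. At the Peaxi162Scf00580 domain they were -1.83 to -1.78. The higher acetylation of both domains rests on the pair that stood apart.

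Domains with opposite directions were few and uneven in width. H3K9ac and H3K27ac were opposite, each with one direction of its own, in 23 domains, and H3K9ac was the higher mark in 16. A median of 1400 bp was listed for the mark with the shorter cover and 6000 bp for the other. In the longest, Peaxi162Scf00747 at 141201 to 151800 (10.6 kb), H3K9ac was 0.714 and 1.26 CPM per kb at 7AM and 2.17 and 3.24 at 7PM. H3K27ac of replicate 1 was 1.76 and 0.619 there over 800 bp, on 16 and 7 reads.

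At Peaxi162Scf00694, 92801 to 102200 (9.4 kb), H3K9ac replicate 1 went from 3.18 CPM per kb at 7AM to 1.28 at 7PM over the whole domain, and H3K27ac replicate 2 from 0.595 to 1.89 over 1000 bp, on 4 and 15 reads. At Peaxi162Scf00149, 1000801 to 1009400 (8.6 kb), H3K9ac replicate 2 went from 1.58 to 3.29 over 8600 bp and H3K27ac replicate 2 from 3.22 to 1.05 over 1200 bp. H3K4me3 was lower there in both replicates, with a log2 fold of -1.63 ± 0.41 (SD, n = 2). H3K36me3 was lower over 400 bp in replicate 1 (log2 fold -1.95, on 30 and 7 reads) and over 5000 bp in replicate 3 (-1.14), at places 1000 bp apart, so no single place was listed in both replicates. In each of the 3, the mark with the narrow island rested on far fewer reads than the wide one.

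Replicates of one mark were opposite in 38 domains for H3K9ac and 14 for H3K27ac, and the opposite islands overlapped in 36 and 6 of them. The longest for H3K9ac was Peaxi162Scf00942 at 172801 to 189400 (16.6 kb), where replicate 2 went from 1.78 to 3.94 CPM per kb over the whole length and replicate 1 from 2.41 to 0.797 over 2600 bp. At Peaxi162Scf00120, 1517201 to 1528200 (11 kb), it was replicate 1 that covered the whole length, from 4.83 to 2.20, and replicate 2 went from 0.714 to 1.99 over 1400 bp. H3K36me3 was lower in both replicates there, at -1.25 ± 0.17 on the log2 scale (SD, n = 2). For H3K27ac the longest was Peaxi162Scf00030 at 622001 to 637800 (15.8 kb), where replicate 1 went from 6.73 to 2.99 over 12200 bp and replicate 2 from 0.651 to 2.60 over 1600 bp, on 7 and 33 reads. These islands lay 2800 bp apart, so that the replicates listed different places. H3K9ac and both methylation marks were lower in both replicates there. At Peaxi162Scf00263, 1466201 to 1477000 (10.8 kb), replicate 1 held 14 reads at 7AM and 2 at 7PM over 400 bp, and replicate 2 held 33 and 81 over 3200 bp.

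Domains were spread over many scaffolds, with 1 domain on each of 327 scaffolds and 5 or more on 74. The most on one scaffold was 13, on Peaxi162Scf00038, Peaxi162Scf00088 and Peaxi162Scf00089. Peaxi162Scf00038 held 7 lower and 6 higher domains, and the others 11 lower and 1 higher each. Of the 13 scaffolds with 10 or more domains, all held more lower than higher ones. The median gap between neighbouring domains was 135.8 kb. Neighbours without mixed direction had the same direction in 518 of 741 cases (69.9%, against 62.7% from the balance of directions alone), and within 20 kb in 103 of 113 (91.2%). Direction went with the library pair that listed a domain, and whether close neighbours came from the same pair was not tested.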

How the data were processed

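ChIP-seq of 4 histone marks at 7AM and 7PM was used from 16 libraries, grouped by mark and time and numbered from the labels (replicates 1 and 2, or 1 and 3 for H3K36me3). The 6 input samples were not used here. Reads were handled with cutadapt, Bowtie2 and SICER 1.1, per the submitters' processing notes. No source used here names the assembly, the settings or the treatment of duplicate reads. The deposited lists give each island's read counts in both libraries, the authors' CPM, the authors' fold (a ratio) between the libraries, and the authors' p-value and false discovery rate. Their columns carry no names, so times were assigned from the direction label of each list and SICER's column layout. Library totals were computed as count over CPM.

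Islands of 5000 bp or more in the 8 acetylation lists were merged at 1 bp of overlap. Every island of any mark that overlapped a domain was assigned to it, and counts were summed per library and divided by the listed length. Counts were fitted per mark in edgeR 4.0.16 (R 4.3.3) with replicate as a block, since each deposited list compares libraries of one replicate number, over domains and all other regions listed in both replicates, with Benjamini-Hochberg adjustment. DESeq2 1.42.0 was an alternative, beside TMM and median-of-ratios scaling, no block, a minimum of 50 reads, leaving out libraries, minimum lengths of 4000 and 10000 bp, 50% overlap for merging, a false discovery rate of 1e-05 and 1 read added to each count. The fits and the merging were tested on simulated data. Only islands listed as changed enter, and islands without a listed change were not analysed here.

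The members and lists were chosen with earlier results of these data known. Domains were named by a rule: the 5 lower and 5 higher ones in all 4 acetylation pairs with the largest smallest change, the 5 longest, the 3 per methylation mark and direction whose smaller change over both replicates was largest, the 3 longest with opposite marks, the 2 longest per mark with opposite replicates, and the 3 densest per acetylation mark. Domains in the closing section with higher acetylation and lower methylation were chosen after their values were seen. Depth limits precision through the counting error of reads, which the binomial intervals do not cover. They rest only on numbers of islands or domains, taken as independent. Deviations from the group means were correlated between libraries of the same replicate number, with 2 pairs per mark. Correlations were 0.50 for H3K9ac, 0.53 for H3K27ac, 0.80 for H3K4me3 and 0.87 for H3K36me3. Morning and evening counts of a replicate cover the same islands, whose length differs between replicates. A positive correlation was therefore given in advance and does not show that these libraries varied together.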

Additional observations from a re-analysis of the deposited data

Results flagged for a closer look

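In a few domains an acetylation mark was higher and a methylation mark lower at 7PM in both replicates of each, so that every library pair of one moved up and every pair of the other down; the difference between the marks was not tested. H3K27ac was higher with H3K4me3 lower in 3 domains and with H3K36me3 lower in 5, of 52 domains higher in both H3K27ac replicates. H3K9ac was higher with H3K4me3 lower in 3 domains and with H3K36me3 lower in 4, of 60. These are 5.77% and 9.62% of the higher H3K27ac domains and 5% and 6.67% of the higher H3K9ac domains. Over all 1501 domains the shares are larger, with H3K4me3 lower in both replicates in 17.4% and H3K36me3 in 15.2%.

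At Peaxi162Scf00304, 808201 to 813200, H3K27ac was 1.11 and 1.20 CPM per kb at 7AM and 3.79 and 4.86 at 7PM in replicates 1 and 2. H3K36me3 was 3.93 and 3.35 at 7AM and 1.89 and 1.17 at 7PM in replicates 1 and 3. Neither mark's morning and evening values overlapped, and the log2 folds were 1.90 ± 0.17 and -1.29 ± 0.33 (SD, n = 2). At Peaxi162Scf00008, 3518001 to 3526200, H3K27ac was 2.15 and 1.74 at 7AM and 5.86 and 8.14 at 7PM, and H3K9ac was 1.40 and 1.27 at 7AM and 3.88 and 4.71 at 7PM. H3K4me3 there was 1.80 and 2.32 at 7AM and 0.815 and 1.08 at 7PM, on 12 to 111 reads per library. At Peaxi162Scf00074, 1906001 to 1912200, H3K27ac rested on 4 and 20 reads at 7AM and 22 and 65 at 7PM, and H3K36me3 on 365 and 711 at 7AM and 146 and 290 at 7PM, at places 4000 bp apart in its 2 replicates. The mean methylation log2 folds of these domains, in order, were -1.29, -1.12 and -1.09. They lay near the median log2 change of all fitted regions, -1.27 for H3K36me3 and -1.27 for H3K4me3. With TMM scaling those medians were 0.00 and -0.03, so these falls depend on the scaling by library totals.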

How the results depend on the processing

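Merging at 50% overlap changed no share by more than its spread. Adding 1 read entered the log2 folds only and could change no share, since directions come from the lists. A minimum length of 4000 bp gave 3823 broad islands and 2737 domains, 39.6% with lower H3K4me3 and 41.7% with lower H3K36me3. In edgeR 726 H3K27ac and 345 H3K36me3 domains were then lower, beside 3607 of all 4345 and 2422 of all 2572 regions. A minimum of 10000 bp gave 154 islands (81.8% lower) and 117 domains, of which 76.1% were lower and 14.5% higher. Of these domains 69.2% had lower H3K4me3 and 77.8% lower H3K36me3. Agreement was then 90.3% between H3K9ac replicates, 93.5% between H3K27ac replicates and 98.8% between marks. EdgeR called 37 lower and 6 higher for H3K27ac, beside 3632 and 415 of all 4368 regions. It called 44 lower for H3K4me3 and 43 for H3K36me3, beside 1657 of all 1869 and 2420 of all 2569 regions. A false discovery rate of 1e-05 gave 98.8% between marks. With at least 50 reads per island, 26.1% of domains were higher and 42.0% had lower H3K4me3. Agreement was then 94.7% between H3K9ac replicates, 99.7% between H3K27ac replicates and 99.0% between marks. In edgeR with that minimum, 107 H3K9ac domains were lower and 47 higher, beside 324 and 162 of all 593 regions. Domains chosen in one H3K27ac replicate and looked up in the other agreed in 99.4%. Leaving out a replicate of both marks gave 649 to 1411 broad islands (33.1% to 96.5% lower) and 588 to 1164 domains (the latter without H3K9ac replicate 2, added after seeing the data), 32.7% to 95.8% lower, 3.96% to 63.8% higher, 27.04% to 49.9% with lower H3K4me3, 39.3% to 50.5% with lower H3K36me3, and 93.4% to 100% between marks; replicate agreement has no value then. Without H3K9ac replicate 2 alone, 91.0% were lower, 6.53% higher, 49.9% had lower H3K4me3 and agreement between marks was 99.1%. Leaving out one library (without the replicate block) gave 0 to 273 lower and 0 to 44 higher H3K27ac domains (59 and 17 without 7AM replicate 1), 0 to 3 lower H3K4me3, 0 to 208 lower H3K36me3 and 0 H3K9ac domains; counts of the 2 replicates then cover islands of different length. With no replicate block alone, 2 H3K4me3 domains were lower, 296 H3K27ac and 211 H3K36me3 ones, and 0 H3K9ac ones. Over all regions these were 17 of 1880, 2797 of 4349, 2370 of 2573 and 0 of 2410. There too the counts cover islands of different length. TMM gave 13, 6 and 4 lower domains for H3K27ac, H3K4me3 and H3K36me3 and 34 lower and 60 higher for H3K9ac. Over all regions it gave 63, 14 and 80 lower, and 69 lower and 342 higher for H3K9ac. Median-of-ratios factors gave 11, 6, 3, 14 and 60 domains in the same order, beside 58, 14, 58, 25 and 351 over all regions. Both scalings were computed over listed regions only, most of them lower, so a smaller median change was given in advance. DESeq2 gave 136 lower and 46 higher for H3K9ac, beside 353 and 139 of all 2410 regions. Single domains changed sign with TMM and median-of-ratios factors, to log2 changes of 0.13 and 0.13 for H3K27ac at Peaxi162Scf00139. For H3K36me3 they were 0.0016 and 0.0068 at Peaxi162Scf00001, 0.082 and 0.090 at Peaxi162Scf00084, 0.062 and 0.069 at Peaxi162Scf00091, 0.030 and 0.036 at Peaxi162Scf00120, and 0.21 and 0.22 at Peaxi162Scf00149. For H3K4me3 they were 0.051 and 0.062 at Peaxi162Scf00078, 0.11 and 0.12 at Peaxi162Scf00789, and 0.0072 with median-of-ratios factors at Peaxi162Scf00139. Leaving out one library gave -5.21 to 2.10 for H3K36me3 at Peaxi162Scf00149, and for H3K9ac -3.86 to 1.07 at Peaxi162Scf00030, -3.83 to 0.22 at Peaxi162Scf00408 and -0.34 to 3.33 at Peaxi162Scf00747. Of the fitted values of named domains under alternatives, leaving out 4 fits where the replicates were opposite, 228 kept their direction and side of the threshold, 131 lost the call, 48 gained it and 21 changed sign. Causes beyond scaling, sample number and covered length were not tested. Depth limits the narrow islands most, some resting on under 10 reads in one library.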
